A study of Mus musculus with 6 samples.

Results

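The genes described here are 37 genes of sterol and fatty acid synthesis and its control, listed by name: 7 of the mevalonate branch, 11 of the sterol branch, 4 regulators, 3 that supply precursors for fatty acids, 3 of fatty acid synthesis itself, 4 of elongation and 4 of desaturation, with the sterol carrier gene Stard4 listed beside them. Their members in the data are the accessible regions of an ATAC-seq count matrix within 1 kb of either end of a listed gene. Where a gene had several such regions, the one with the highest mean count was its main region. The matrix held 24605 regions, 9422 of them at gene ends. Of the 37 genes, 30 had a region at an end, with 35 regions in all, and 7 had none (Pmvk, Fdft1, Stard4, Acacb, Elovl6, Me1 and Mlxipl). All 30 main regions passed the filter on low counts.

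CD8+ T cells were from mice of genotype WT (wild type), with pancreas, spleen and lymph nodes given as the tissues of origin. The cells were kept for 48 hours in T cell medium, either as control (3 libraries) or with 100 µM palmitate (3 libraries), the saturated fatty acid that mammalian fatty acid synthase releases. Each library was made from 50000 cells purified by FACS. The protocol text is shared by both groups, so the group is taken from the treatment label, and what the control medium held in place of palmitate is not given in the sources used here. ATAC-seq counts the DNA that the Tn5 transposase can reach, so a count measures how open a region was across the cells of a library, and not the RNA of its gene. The labels do not say whether the libraries of a group came from separate mice or cultures, so the p-values rest on differences among the libraries alone, and that spread may be technical. In such a pool, a change in how open a region was in each cell and a change in the share of cells in which it was open cannot be told apart.

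Cells build cholesterol from acetyl-CoA through mevalonate, isoprenoid diphosphates, squalene and lanosterol, and build fatty acids from the same acetyl-CoA through malonyl-CoA, with palmitate as the main product that elongases and desaturases then modify. Both routes are controlled by the transcription factors SREBP-2, encoded by Srebf2 and directed mainly to sterol genes, and SREBP-1, encoded by Srebf1 and directed mainly to fatty acid genes. Low sterol in the endoplasmic reticulum frees the SREBP precursors for processing, INSIG proteins hold them back, and the active factors bind sterol regulatory elements next to sites of NF-Y and Sp1. Activated CD8+ T cells are known to switch on this program to make membrane as they grow.

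The libraries held between 2219136 and 3089230 counts in regions, and accessibility is given as CPM, a region's count scaled by its library's total after adjustment by a TMM factor. The median member had a mean of 116 CPM. Main regions of 28 of the 30 genes (93.3%) lay in the peak lists of all 6 libraries, against 84.6% of gene-end regions and 60.7% of all tested regions. These shares are not like for like, since a main region is by rule the strongest at its gene's ends. Shares at like strength were not compared. The exceptions were the main regions of Scd1 (3 lists) and Srebf1 (4 lists). All 7 CD8+ T cell markers examined (Cd3d, Cd3e, Cd3g, Cd8a, Cd8b1, Cd2 and Lck) had a gene-end region, with summed accessibility of 314 to 351 CPM in control and 308 to 364 CPM with palmitate. Of the CD4 T cell markers, Cd4 and Foxp3 had no region, and Zbtb7b had one at 34.9 to 51.4 CPM in control and 46.5 to 73.4 CPM with palmitate, which was called higher (log2 fold change 0.48, edgeR adjusted p = 0.0121). Of the other listed cell types, 1 of 6 B cell markers (Ebf1) and 2 of 5 myeloid markers (Itgam and Spi1) had a gene-end region. So did 0 of 2 NK cell markers and 1 of 6 pancreas markers (Cela1), and Lyz2, Ncr1 and Ins1 had none. Cela1 was at 35.4 to 44.4 CPM in control and 28.9 to 42.6 CPM with palmitate. Itgam was called higher (log2 fold change 0.91, edgeR adjusted p = 0.0151). Summed accessibility of the 2 myeloid marker regions was 12.6 to 20.4 CPM in control and 20 to 24.5 CPM with palmitate, and the part of other cells in the values below was not tested.

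Sequence upstream of the start was taken from RefSeq (GRCm38.p6) for the 21 members whose annotated start lay inside the main region, since there the counts cover the start itself. The windows of 6 of them are shown 5′ to 3′ on the strand of the gene, each 250 bases long and ending at the base before the start. Windows of Idi1, Fasn, Acat2, Cyp51 and Elovl7 ran in part past the edge of the main region, so the counts do not cover all of their bases. Capitals mark matches, on either strand, to 4 motifs: TCACNCCAC (the core of a sterol regulatory element), CCAAT (the NF-Y site, read as ATTGG on the other strand), CACGTG (the E-box) and GGGCGG (the GC box of Sp1, read as CCGCCC on the other strand). Hmgcs1 and Insig1 are shown as sterol-regulated genes whose regions were higher with palmitate, Mvd and Idi1 as the mevalonate genes at opposite ends of the comparison with gene ends of like strength, Fasn as the fatty acid synthase gene, and Fads2 as the member with the lowest fold change.
Hmgcs1 (chr13:119690101-119690350, plus strand): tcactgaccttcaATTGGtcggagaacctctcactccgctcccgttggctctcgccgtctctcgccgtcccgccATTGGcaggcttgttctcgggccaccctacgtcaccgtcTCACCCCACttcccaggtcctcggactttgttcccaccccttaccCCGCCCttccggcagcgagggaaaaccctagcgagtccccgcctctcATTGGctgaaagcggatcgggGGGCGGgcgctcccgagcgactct
Insig1 (chr5:28071162-28071411, plus strand): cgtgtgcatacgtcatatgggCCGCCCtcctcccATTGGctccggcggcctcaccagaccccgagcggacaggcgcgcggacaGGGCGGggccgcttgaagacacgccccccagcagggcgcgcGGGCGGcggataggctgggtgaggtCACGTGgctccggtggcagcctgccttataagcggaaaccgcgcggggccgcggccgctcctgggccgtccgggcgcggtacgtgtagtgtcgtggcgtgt
Mvd (chr8:122443423-122443672, minus strand): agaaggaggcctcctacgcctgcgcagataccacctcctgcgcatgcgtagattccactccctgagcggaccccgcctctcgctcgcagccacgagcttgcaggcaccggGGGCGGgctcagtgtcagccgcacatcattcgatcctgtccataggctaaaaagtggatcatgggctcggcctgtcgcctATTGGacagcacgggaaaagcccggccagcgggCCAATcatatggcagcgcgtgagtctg
Idi1 (chr13:8885356-8885605, plus strand): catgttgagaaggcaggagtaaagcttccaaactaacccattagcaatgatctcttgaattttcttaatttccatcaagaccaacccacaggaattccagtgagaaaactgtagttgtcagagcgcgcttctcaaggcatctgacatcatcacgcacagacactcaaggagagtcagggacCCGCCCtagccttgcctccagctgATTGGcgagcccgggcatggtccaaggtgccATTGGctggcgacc
Fasn (chr11:120824548-120824797, minus strand): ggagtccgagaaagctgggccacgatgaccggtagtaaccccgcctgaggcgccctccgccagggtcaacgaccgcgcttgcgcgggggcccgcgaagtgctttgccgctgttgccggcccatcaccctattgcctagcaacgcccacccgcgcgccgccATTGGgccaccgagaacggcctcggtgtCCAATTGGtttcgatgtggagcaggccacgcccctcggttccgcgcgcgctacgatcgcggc
Fads2 (chr19:10101504-10101753, minus strand): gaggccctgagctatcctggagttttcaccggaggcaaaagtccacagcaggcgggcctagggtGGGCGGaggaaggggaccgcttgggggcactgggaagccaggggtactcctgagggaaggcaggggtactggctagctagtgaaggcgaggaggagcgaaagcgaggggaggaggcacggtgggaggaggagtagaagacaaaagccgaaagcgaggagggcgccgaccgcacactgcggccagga

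Hmgcs1 was the only one of the 21 with a match to the sterol element core, written TCACCCCAC and starting at -137 from the start. It lay between 2 of the 3 CCAAT matches of that window, and 1.05% of all 32851 promoter windows held such a match. A CCAAT match was present in 17 of the 21 windows (81.0%), against 33.8% of all windows and 37.2% of the 9934 windows whose start lay in a tested region. Mvk carried 5 of them, and in Fasn a CCAAT and an ATTGG match share 2 bases in the run CCAATTGG. Fads2, Acat2, Acly and Elovl7 had none. The GC box was present in 19 of the 21 (90.5%), against 32.7% of all windows and 64.5% of those with an open start. An E-box was present in 4 (19.0%; Hsd17b7, Sc5d, Insig1 and Elovl5), against 6.02% and 9.42%. Base composition differed between these sets too: GC content was 64.8% (median) in the members, 61.6% in windows with an open start and 52.4% in all windows. A match is a run of letters, not a bound site, and none of these shares was tested.

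**Figure D1:**
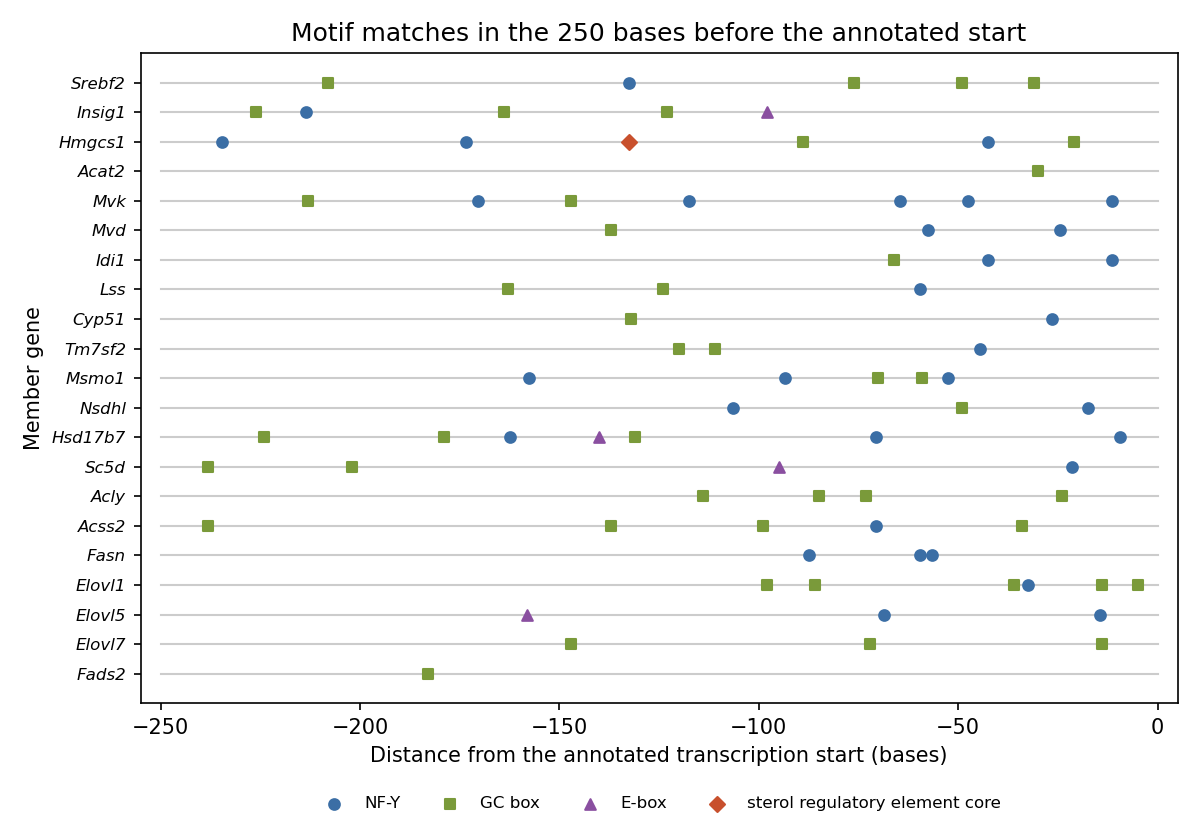
Positions of matches to the 4 motifs in the 250 bases upstream of the annotated start (horizontal axis, bases from the start), one row for each of the 21 members with a start in the main region. CCAAT matches appear in 17 rows and GC boxes in 19, while the sterol element core appears only in the Hmgcs1 row.

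With palmitate, 12 of the 30 main regions were more accessible, 0 were less accessible and 18 were not called (edgeR quasi-likelihood F-test, two-sided, Benjamini-Hochberg adjustment over 24316 regions, false discovery rate 0.05). The 12 were Hmgcs1, Mvk, Mvd and Fdps of the mevalonate branch, Sqle, Lss, Msmo1 and Hsd17b7 of the sterol branch, the regulator Insig1, Acly and Acss2, which supply acetyl-CoA, and the elongase Elovl1. The same test called 25.0% of all gene-end regions higher and 2.47% lower, and 11.9% of all tested regions higher and 12.7% lower. At an unadjusted p under 0.05, edgeR had 16 members higher and 1 lower (Fads2), and limma-voom and the DESeq2 Wald test also called 0 lower. At that threshold edgeR had 3190 of 9408 gene-end regions higher and 457 lower (4094 and 4798 of 24316 tested regions). The median log2 fold change of the members was 0.19, against 0.14 for gene-end regions and -0.05 for all tested regions.

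Fold changes in these libraries followed the strength of a region, so each member was also set beside the 200 gene-end regions of other genes nearest to it in mean log2 CPM. Over the 30 members, the shares of those neighbours that were called add up to 14.2 higher and 0.32 lower, beside the 12 and 0 found. The median difference between a member and its neighbours' median was -0.06 on the log2 scale, and 11 of 30 members were above that median. Among the 17 with a CCAAT match the median difference from the neighbours was 0.00, over a range from -0.28 (Idi1) to 0.17 (Insig1). Among the 4 without one it was -0.12, over a range from -0.53 (Fads2) to -0.03 (Elovl7). These ranges overlap, and the contrast was not tested.

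**Figure D2:**
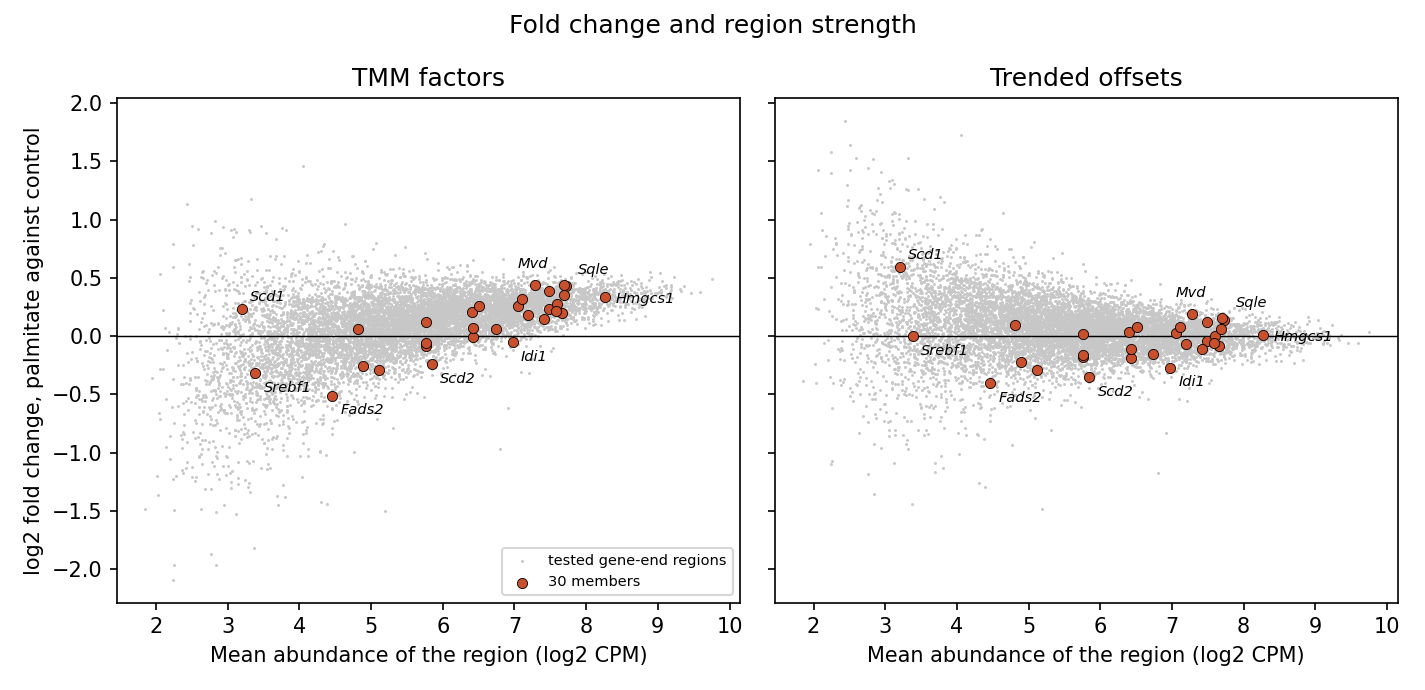
Log2 fold change (vertical axis, palmitate against control) against mean abundance of the region (log2 CPM) for the 30 members (red) and all tested gene-end regions (grey), with TMM factors on the left and with offsets that remove the trend on strength on the right. On the left the members climb with strength along the grey cloud, and on the right they lie around 0, with a median of -0.02.

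Across the 30 members, log2 fold change rose with strength (Spearman correlation 0.77, over regions that share the same 6 libraries), and across 9408 gene-end regions the correlation was 0.53. Of the 16 members with a mean of at least 100 CPM, 11 were called higher and their median log2 fold change was 0.27, where their neighbours' shares add up to 11.9. Of the 14 weaker members, 1 (Elovl1) was called, the median was -0.03, and the neighbours' shares add up to 2.3. An alternative fit took offsets from a smooth trend of each library on region strength (trended offsets). This sets the average change of all tested regions at each strength near 0. Gene ends need not centre there: the trended medians of the members' neighbours ran from -0.01 (Insig1) to 0.20 (Scd1). With trended offsets, edgeR called 0 of 30 members higher and 1 lower (Idi1), where 2.43% of gene ends were called higher and 1.45% lower (2.09% and 3.98% of all tested regions). The Spearman correlation with strength was then 0.34 for the members and -0.22 for gene-end regions. At an unadjusted p under 0.05 this fit had 4 members higher (Mvd, Sqle, Insig1 and Scd1) and 3 lower (Idi1, Cyp51 and Scd2). At that threshold it had 1133 of 9408 gene-end regions higher and 571 lower (2442 and 2801 of 24316 tested regions). The 12 regions were thus higher relative to the average region. None of them passed the test relative to the average change of all tested regions at its own strength. On that scale Lss, Msmo1 and Acly were at or below 0.

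The groups of 3 libraries did not overlap in 17 members, with palmitate above control in 15 and below it in 2 (Ebp and Acaca). Palmitate lay wholly above control in 35.5% of gene-end regions and wholly below in 6.66% (17.9% and 21.0% of all tested regions), and the members' neighbours add up to 17.3 above and 1.0 below. Summed over the 30 main regions, accessibility was 3371, 3063 and 3352 CPM in control libraries 1 to 3 and 3785, 3798 and 3856 CPM in palmitate libraries 1 to 3. The 3 palmitate sums were above all 3 control sums, while the median member was at 118, 106 and 108 CPM in control and 128, 112 and 108 CPM with palmitate, which overlap. Strong regions weigh most in such a sum. In the 16 members of at least 100 CPM the median log2 fold change was 0.27, beside 0.28 for gene ends of like strength. Sums over other gene ends were not compared.

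**Figure D3:**
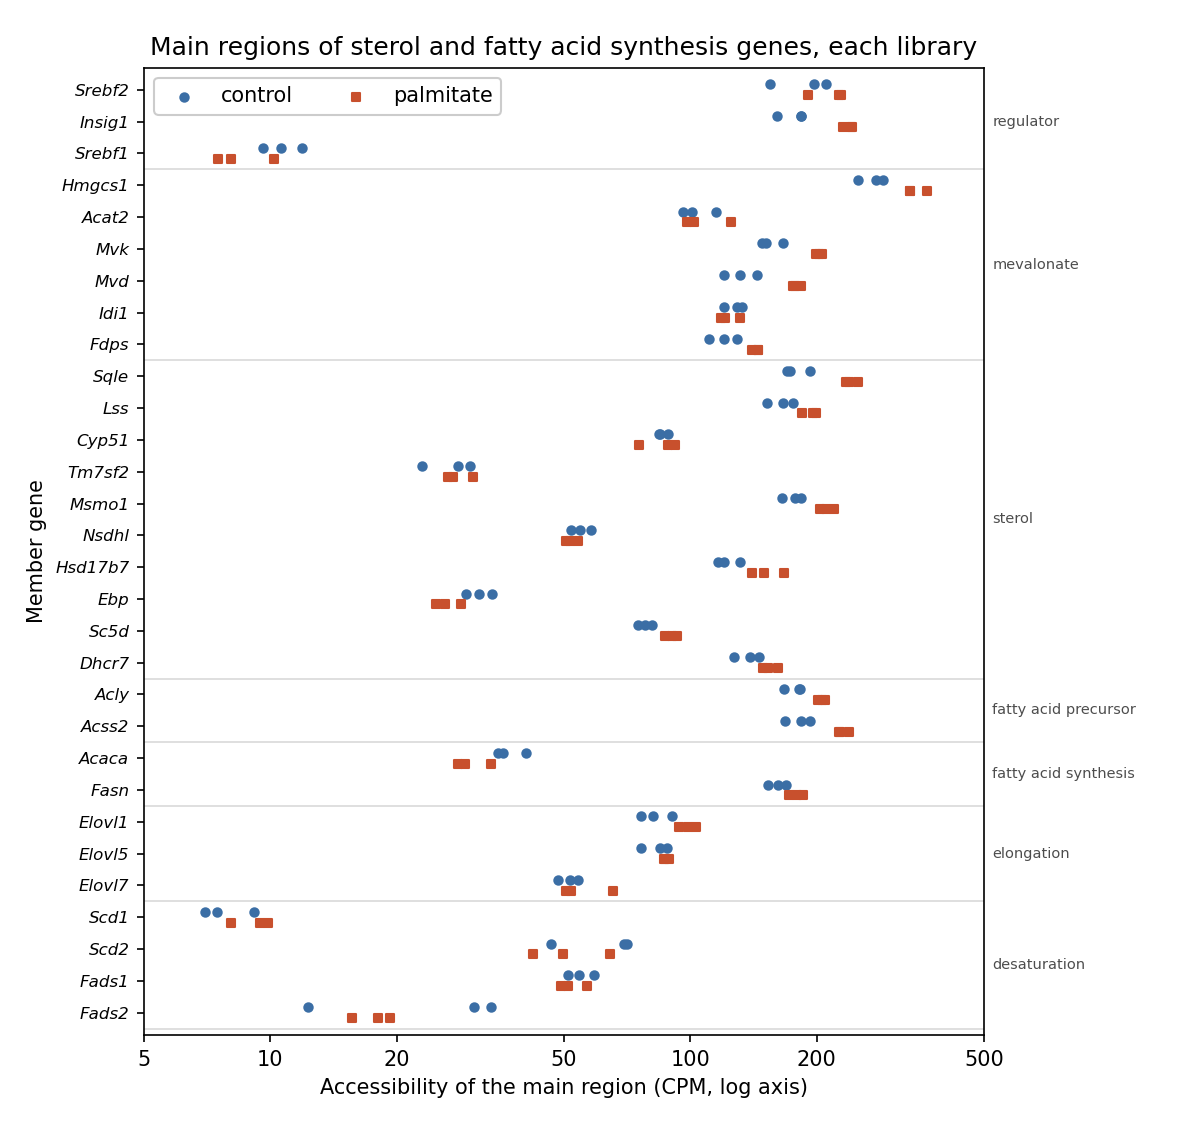
Accessibility of the main region of each of the 30 members (horizontal log axis, CPM) in the 3 control libraries (blue circles) and the 3 palmitate libraries (red squares), grouped by role. The groups are apart in strong regions such as Hmgcs1, Sqle and Insig1, and overlap in most regions under 100 CPM; control library 2 stands apart at Fads2 with 12.3 CPM.

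The mevalonate branch, which makes the isoprenoid units of sterols, had 6 of 7 genes with a region, and 4 of the 6 were higher, where gene ends of like strength add up to 4.2. The median log2 fold change was 0.30, and the median difference from gene ends of like strength was 0.00. Hmgcs1 encodes the cytosolic synthase that makes HMG-CoA and had the strongest main region of all members (chr13:119690003-119690625, 495 CPM per kb of region, mean of 6 libraries). It was at 287, 250 and 277 CPM in control and 333, 333 and 366 CPM with palmitate. Every palmitate library was above every control library, by 0.34 ± 0.064 (log2 fold change ± SE, adjusted p = 0.000221 by edgeR with Benjamini-Hochberg adjustment). Its neighbours in strength had a median of 0.35, and with trended offsets its change was 0.01 (edgeR adjusted p = 0.941).

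Mvk, which encodes the kinase that phosphorylates mevalonate, shares its main region (chr5:114443801-114444391) with the start of Mmab. Its values were 166, 148 and 151 CPM in control and 202, 199 and 206 CPM with palmitate, without overlap (log2 fold change 0.39 ± 0.070, edgeR adjusted p = 0.00014). Mvd encodes the decarboxylase that yields isopentenyl diphosphate (chr8:122443248-122443832). Its values were 144, 131 and 120 CPM in control and 175, 177 and 183 CPM with palmitate. The groups were apart by 0.44 ± 0.075 (edgeR adjusted p = 7.5e-05), and Mvd was the only member over the 95th percentile of its neighbours, at percentile 96.5. With trended offsets Mvd was at 0.19 (edgeR adjusted p = 0.107), which was not called. Fdps, the synthase of farnesyl diphosphate, was at 120, 111 and 129 CPM in control and 140, 145 and 145 CPM with palmitate (chr3:89101670-89102236). These groups were also apart, by 0.26 ± 0.077 (edgeR adjusted p = 0.0136), and its percentile among its neighbours was 53.0. The Fdps call was lost without control library 2 or palmitate library 3 (0.20 and 0.25, edgeR adjusted p = 0.0566 and 0.0541).

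Idi1, the isomerase between the 2 building blocks that Fdps joins, lay at the opposite end from Mvd among gene ends of its strength. Its main region (chr13:8885471-8886158) was at 133, 129 and 120 CPM in control and 131, 121 and 118 CPM with palmitate, with the groups overlapping (log2 fold change -0.05 ± 0.078, edgeR adjusted p = 0.699). Since its neighbours had a median of 0.24, and 56.5% of them were called higher, Idi1 was at percentile 1.0 among them. With trended offsets it was the single member called, and lower, at a log2 fold change of -0.27 (edgeR adjusted p = 0.0284). That call was lost when control library 1, control library 2, palmitate library 2 or palmitate library 3 was left out (log2 fold change -0.25, -0.24, -0.25 and -0.24, adjusted p 0.106, 0.0586, 0.106 and 0.139 by edgeR). The promoter windows of Mvd and Idi1 each held 2 CCAAT matches and 1 GC box, and their GC contents were 62.8% and 51.2%, the latter the lowest of the 21. The remaining gene, Acat2, which encodes the cytosolic thiolase that starts the route, had overlapping groups at 104 ± 9.71 CPM and 108 ± 14.6 CPM (SD, n = 3 each).

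In the sterol branch, from squalene to cholesterol, 10 of 11 genes had a region, 4 were higher, where gene ends of like strength add up to 4.6, and the median log2 fold change was 0.20 (median difference from gene ends of like strength -0.04). Sqle encodes squalene epoxidase, a rate-controlling step of this branch. Its main region (chr15:59314691-59315240) was at 173, 170 and 193 CPM in control and 238, 251 and 234 CPM with palmitate. The groups were well apart, by 0.43 ± 0.068 (edgeR adjusted p = 3.6e-05), and Sqle was at percentile 89.5 among its neighbours. Lss encodes lanosterol synthase, which closes the sterol rings (chr10:76531193-76531817). It was at 166, 152 and 175 CPM in control and 196, 184 and 199 CPM with palmitate, apart by 0.23 ± 0.071 (edgeR adjusted p = 0.0163). The Lss call was lost without control library 2 or palmitate library 3 (0.17 and 0.21, edgeR adjusted p = 0.0652 and 0.0827), and under trended offsets its sign turned (-0.04, edgeR adjusted p = 0.794).

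Msmo1 and Hsd17b7 act in the removal of methyl groups from the sterol ring, as oxidase and ketoreductase. Msmo1 (chr8:64733404-64733913) was at 183, 165 and 177 CPM in control and 210, 220 and 204 CPM with palmitate. The groups were apart by 0.28 ± 0.068 (edgeR adjusted p = 0.00341), and the neighbours' median was 0.30. Hsd17b7 (chr1:169969010-169969650) was at 131, 116 and 120 CPM in control and 167, 140 and 150 CPM with palmitate, again apart, by 0.32 ± 0.080 (edgeR adjusted p = 0.00364). The other 6 genes of the branch were not called. Sc5d and Dhcr7, which encode a desaturase and the reductase that completes cholesterol, lay above control in every palmitate library (log2 fold changes 0.21 and 0.18, adjusted p 0.0778 and 0.0841 by edgeR). Ebp, a sterol isomerase whose region is shared with Porcn, lay below control in every palmitate library (-0.26, edgeR adjusted p = 0.233). Cyp51, the lanosterol demethylase, Tm7sf2, a sterol reductase, and Nsdhl, a sterol dehydrogenase, overlapped between groups, at log2 fold changes of -0.01, 0.06 and -0.08. The regions of Tm7sf2, Nsdhl and Dhcr7 are shared with Vps51, Cetn2 and Nadsyn1.

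Of the 4 regulators, 3 had a region at a gene end and 1 was higher, where gene ends of like strength add up to 1.7 (median difference from them -0.09). Insig1 encodes the membrane protein that keeps SREBP precursors in the endoplasmic reticulum and is itself a well known SREBP target. Its main region (chr5:28070935-28071648) was at 183, 161 and 183 CPM in control and 231, 242 and 241 CPM with palmitate. The groups were apart by 0.44 ± 0.068 (edgeR adjusted p = 2.4e-05), the lowest adjusted p among the members, at percentile 92.0 of its neighbours. Srebf2, the gene of SREBP-2, was at 197, 155 and 210 CPM in control and 191, 226 and 228 CPM with palmitate (chr15:82146804-82147396). Its groups overlapped, since palmitate library 1 lay below 2 of the control libraries (log2 fold change 0.20 ± 0.084, edgeR adjusted p = 0.077). Without control library 3 or palmitate library 1, Srebf2 was called higher (0.32 and 0.28, edgeR adjusted p = 0.0249 and 0.0283). It was not called without any of the others. Without control library 2, its lowest control, the change was 0.08 (edgeR adjusted p = 0.469). Leaving out control library 1, palmitate library 2 or palmitate library 3 gave 0.24, 0.17 and 0.16 (edgeR adjusted p = 0.0581, 0.23 and 0.28). The neighbours of Srebf2 in strength had a median of 0.29, and 81.5% of them were called higher. Among them Srebf2 was at percentile 25.5, and with trended offsets it was at -0.08 (edgeR adjusted p = 0.57). Per length, the main regions of Insig1 and Srebf2 were open at 290 and 340 CPM per kb.

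Srebf1, the gene of SREBP-1, had its only gene-end region at the far end of the gene (chr11:60199737-60200048), shared with the end of Rai1, and at 31.0 CPM per kb it was the least open member per length. It was at 9.59, 10.6 and 11.9 CPM in control and 7.49, 10.2 and 8.05 CPM with palmitate, which overlap (log2 fold change -0.32 ± 0.26, edgeR adjusted p = 0.401). The 3 regions inside the gene each held an annotated start of Srebf1. The one at chr11:60210314-60210807 was at 88.5, 72.2 and 74.5 CPM in control and 71.3, 85.6 and 82.8 CPM with palmitate (0.04 ± 0.099, edgeR adjusted p = 0.797). The others had log2 fold changes of -0.07 and -0.19 (edgeR adjusted p = 0.742 and 0.293), so no start of Srebf1 passed the test in either direction.

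Acly and Acss2 make the acetyl-CoA of the cytosol, from citrate and from acetate, and both were higher, where gene ends of like strength add up to 1.6. Acly (chr11:100527599-100528286) was at 182, 167 and 181 CPM in control and 206, 201 and 209 CPM with palmitate, apart by 0.22 ± 0.067 (edgeR adjusted p = 0.016), a call that was lost without palmitate library 3 (0.21, edgeR adjusted p = 0.0665). Acss2 (chr2:155517720-155518326) was at 183, 168 and 193 CPM in control and 226, 227 and 239 CPM with palmitate, apart by 0.35 ± 0.068 (edgeR adjusted p = 0.000412). Their neighbours had medians of 0.29 and 0.28, and with trended offsets the values were -0.06 and 0.06 (edgeR adjusted p = 0.63 and 0.611).

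Neither gene of fatty acid synthesis with a region was called (0 of 2, where gene ends of like strength add up to 0.8 higher, with medians of -0.07 for the log2 fold change and -0.24 for the difference from gene ends of like strength). Fasn encodes the synthase whose product is palmitate. Its main region (chr11:120823841-120824761) was at 162, 153 and 169 CPM in control and 172, 185 and 179 CPM with palmitate, just apart, by 0.15 ± 0.070 (edgeR adjusted p = 0.115). Of its neighbours 76.5% were called higher, and Fasn was at percentile 14.0 among them. Acaca encodes acetyl-CoA carboxylase, which makes malonyl-CoA. Its gene-end region (chr11:84129305-84129865) is shared with the start of Tada2a, and the promoter in the RefSeq table lies elsewhere in the gene. It was at 34.9, 40.6 and 35.7 CPM in control and 28.0, 33.6 and 29.1 CPM with palmitate, with every palmitate library below control (-0.29 ± 0.14, edgeR adjusted p = 0.14). With total counts as library sizes this became a call, at -0.41 (edgeR adjusted p = 0.0404).

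Among the elongases, which lengthen fatty acids, Elovl1 of very long chains was higher and Elovl5 and Elovl7 were not called, where gene ends of like strength add up to 1.0 higher. Elovl1 (chr4:118427785-118428401) was at 90.6, 76.2 and 81.3 CPM in control and 98.5, 103 and 93.9 CPM with palmitate. The groups were just apart, by 0.26 ± 0.089 (edgeR adjusted p = 0.0315), and the call held in 6 of 16 alternative settings, the fewest of the 12. It was lost without control library 2 or 3 (edgeR adjusted p = 0.108 and 0.0754) and without palmitate library 1 or 2 (edgeR adjusted p = 0.0669 and 0.12). Elovl5 and Elovl7, at log2 fold changes of 0.07 and 0.12, overlapped between groups.

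No region of the 4 desaturase genes, which put double bonds into fatty acids, was called by edgeR, limma-voom or DESeq2 (at an unadjusted p under 0.05, edgeR had 1 lower, Fads2, and 0 higher), and gene ends of like strength add up to 0.3 higher. Their median difference from those gene ends was -0.30. Scd1 and Scd2 encode stearoyl-CoA desaturases, which act on palmitoyl- and stearoyl-CoA. Scd2 (chr19:44293623-44294375) was at 70.6, 46.6 and 69.4 CPM in control and 42.2, 49.6 and 64.4 CPM with palmitate. The groups overlapped, with control library 2 low (-0.24 ± 0.14, edgeR adjusted p = 0.206), and Scd2 was at percentile 2.0 among its neighbours. Fads2, a desaturase of polyunsaturated fatty acids (chr19:10101428-10102062), was at 33.6, 12.3 and 30.6 CPM in control and 19.3, 15.6 and 18.0 CPM with palmitate. Control library 2 was the lowest of all 6, so the groups overlapped (-0.51 ± 0.24, edgeR adjusted p = 0.116), at percentile 3.0.

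Without control library 2, both Scd2 and Fads2 were lower with palmitate, at -0.42 and -0.86 (edgeR adjusted p = 0.0104 and 0.000384). Without control library 1 they were at -0.15 and -0.28 (edgeR adjusted p = 0.503 and 0.461). Scd1 was weakly open (chr19:44393983-44394226, 35.0 CPM per kb), at 9.15, 6.99 and 7.48 CPM in control and 9.46, 9.85 and 8.05 CPM with palmitate, overlapping (0.23 ± 0.28, edgeR adjusted p = 0.586). The region at the other end of Scd1 (chr19:44407779-44408072) had the opposite sign (-0.54 ± 0.35, edgeR adjusted p = 0.275). Fads1 was at 54.8 ± 3.81 CPM in control and 52.4 ± 3.88 CPM with palmitate (SD, n = 3 each), also overlapping. The main regions of all 4 genes were weak, with means of 8.5 to 57.1 CPM, while the 6 mevalonate regions had means of 106 to 308 CPM.

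**Figure D4:**
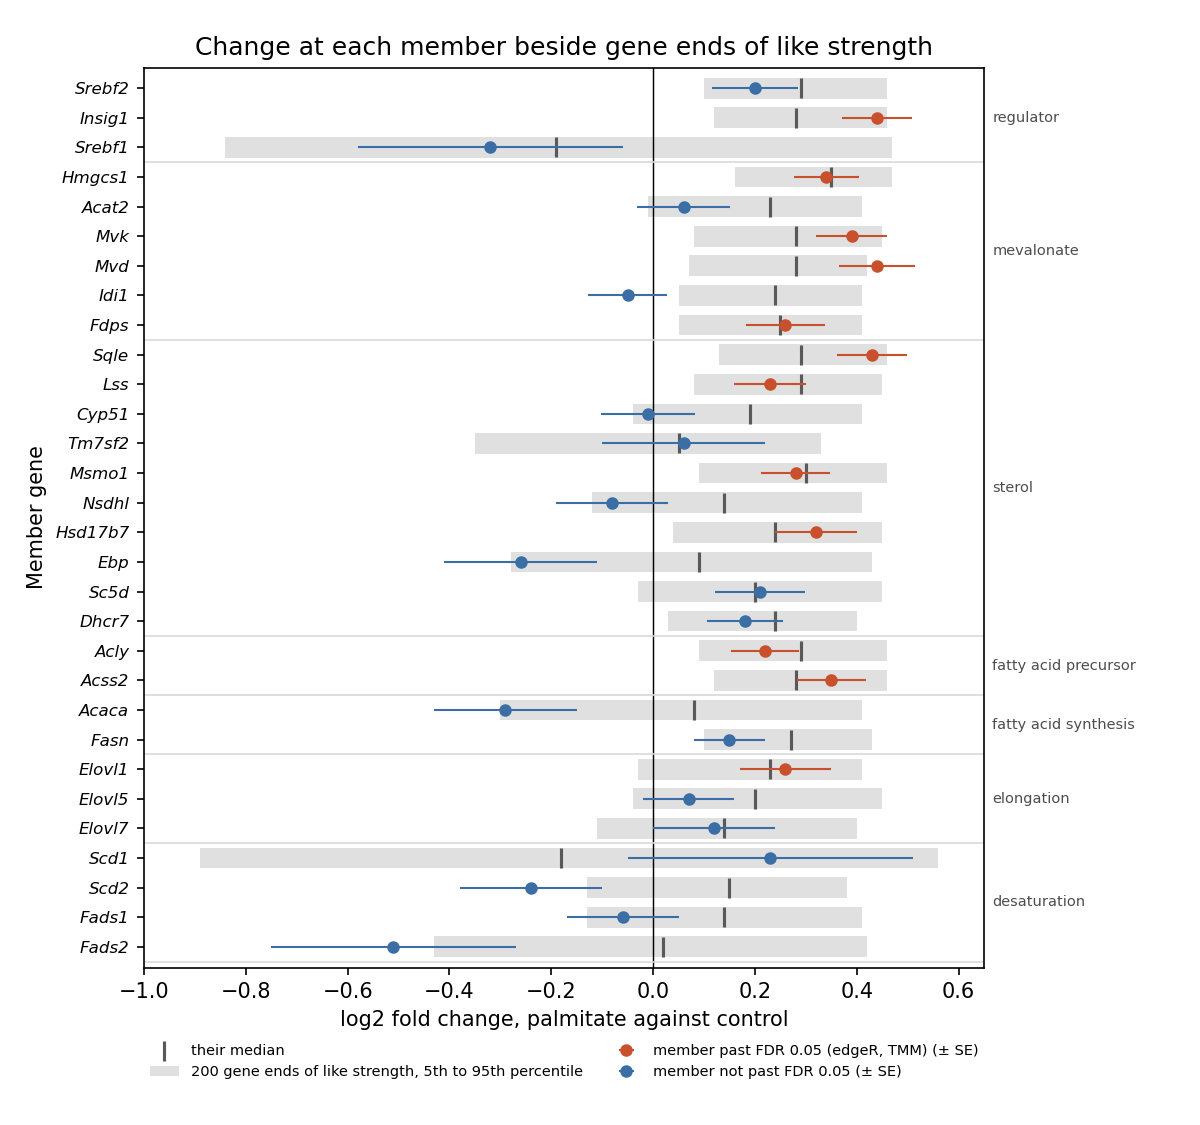
Log2 fold change of each member's main region (points, palmitate against control, bars ± SE from edgeR with TMM factors) over the 5th to 95th percentile range of its 200 gene-end regions of like strength (grey bands). Mvd lies above its band and Idi1, Scd2 and Fads2 lie below theirs, while the other 26 lie within.

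Regions away from the main one showed a mixed picture. The 5 further gene-end regions of member genes, in Mvd, Tm7sf2, Insig1, Scd1 and Acss2, had 0 calls and a median log2 fold change of -0.25. Of all gene-end regions, 25.0% were called higher and 2.47% lower. Apart from the one in Mvd these further regions were weak, with control means of 6.62 to 31.4 CPM. They were not set beside gene ends of like strength. Inside the member genes lay 29 regions, of which 2 were higher and 4 lower, where 4.3% of all regions inside genes were higher and 19.6% lower. The stronger of the 2 higher regions was in Fdft1, the gene of squalene synthase, which had no gene-end region. It lay at chr14:63177681-63178325 and was at 232, 212 and 227 CPM in control and 288, 275 and 293 CPM with palmitate. Every palmitate library was above control (0.35 ± 0.063, edgeR adjusted p = 0.000142). With trended offsets the change in this Fdft1 region was 0.04 (edgeR adjusted p = 0.724), which was not called. The other higher region held an annotated start of Dhcr7 (chr7:143829557-143830336, 0.22 ± 0.083, edgeR adjusted p = 0.0458). It was at 0.01 with trended offsets (edgeR adjusted p = 0.942).

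The lower regions inside genes were weak. Of the 4, 3 lay in Me1, which encodes malic enzyme, a source of NADPH for lipid synthesis, with log2 fold changes of -1.19, -1.16 and -1.56 (edgeR adjusted p = 0.00201, 0.00783 and 0.00446). The first of them was at 13.1, 12.6 and 15 CPM in control and 3.94, 7.48 and 6.14 CPM with palmitate, without overlap. With trended offsets none of the 3 was called (adjusted p 0.0642, 0.194 and 0.297 by edgeR). The last lay in Acacb, the carboxylase linked to mitochondria, at 42.3, 22.6 and 37.1 CPM in control and 21.3, 19.0 and 24.5 CPM with palmitate (-0.64 ± 0.19, edgeR adjusted p = 0.0127). In this Acacb region the groups overlapped, and with trended offsets it was at -0.59 (edgeR adjusted p = 0.0604), which was not called. Trended offsets, which called 1.93% of all regions inside genes higher and 5.69% lower, called 1 inside region of a member gene higher, in Acss2 (chr2:155538319-155538892, 0.78, edgeR adjusted p = 0.0393), and 1 lower, in Acaca (chr11:84179349-84180342, -0.29, edgeR adjusted p = 0.0335). That Acaca region was at 171, 156 and 207 CPM in control and 184, 193 and 148 CPM with palmitate, so its groups overlapped.

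Other genes of the pathway, 49 in all, cover sterol sensing, transport, esterification, export, acyl-CoA synthesis and the transcription factors that act with SREBP, and 41 had a gene-end region. Of these 19 were higher, 1 was lower and 21 were not called. Their neighbours in strength add up to 16.7 higher and 0.7 lower, and the median log2 fold change was 0.28. The higher regions with the smallest p lay at the ends of Sp1, the factor of the GC box (718 ± 40.6 CPM in control and 1010 ± 23.8 CPM with palmitate), of Ggps1, which makes geranylgeranyl diphosphate and shares its region with Arid4b (247 ± 20.3 and 335 ± 11.0 CPM), and of Mylip, a ligase that degrades lipoprotein receptors (165 ± 6.0 and 226 ± 11.8 CPM; SD, n = 3 in each group). Their log2 fold changes were 0.49, 0.43 and 0.46 (edgeR adjusted p = 3.56e-07, 1.65e-05 and 1.66e-05), and with trended offsets they were 0.03, 0.11 and 0.18 (not called).

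The lower region was that of Soat2, which encodes an enzyme that stores cholesterol as ester. It was at 31.8, 35.6 and 37.4 CPM in control and 18.5, 18.7 and 15.3 CPM with palmitate (chr15:102150156-102150868), with every palmitate library far below control. The log2 fold change was -1.0 ± 0.17 (edgeR adjusted p = 6.85e-05), below all 200 gene ends of like strength, and with trended offsets it was -0.93 (edgeR adjusted p = 0.00085). The region also lies at an end of Igfbp6, so it cannot be assigned to either gene. The region of Acss1, a mitochondrial acetyl-CoA synthetase, also had a negative sign but was not called (-0.06, edgeR adjusted p = 0.854). With trended offsets edgeR called 0 of the 41 higher and 1 lower, Soat2 (7 higher and 3 lower at an unadjusted p under 0.05). At that unadjusted threshold this fit had 1133 of 9408 gene-end regions higher and 571 lower.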

How the data were processed

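ATAC-seq was analysed in 6 libraries, 3 control and 3 with palmitate (100 µM, 48 hours). Per the submitters' processing notes, the build was mm10 and the tools included edgeR (version 3.40.2), MACS2 (2.2.8), Picard (2.23.8), Bowtie2 (2.5.1) and Trim Galore (0.6.10). How regions were merged and reads counted, and whether reads were shifted for Tn5, is not given in the sources used here. Raw counts per region make up the matrix deposited by the authors. The peak lists deposited by the authors hold the peaks of each library with the authors' score, used only to see in which lists a region lay. Regions were joined to RefSeq genes of GRCm38.p6, the assembly that mm10 names, by position.

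Counts were fitted by quasi-likelihood in edgeR 4.0.16 under R 4.3.3, with TMM factors (0.953 to 1.05) and filterByExpr, which removed 289 of 24605 regions, with no covariate. P-values were two-sided and adjusted by Benjamini-Hochberg over 24316 regions at a false discovery rate of 0.05. The common biological coefficient of variation was 0.0659. SE was taken as |log2 fold change| over the root of the F statistic. CPM uses TMM library sizes. Trended offsets came from a loess fit (span 0.3) of each library's log count (plus 0.5) on region strength. The scripts were tested on simulated data. Alternatives were DESeq2 1.42.0, limma 3.58.1, other scalings and count filters, a replicate block and leaving out each library.

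Members and lists were chosen with earlier results of these data known. Values per library are given for members called by either edgeR fit, for those under the 5th or over the 95th percentile of 200 gene-end regions of like strength, and for Srebf1, Srebf2, Fasn, Scd1, Scd2, Acaca, Hmgcs1, Sqle and Insig1. Of the other pathway genes, those called with trended offsets and the 3 with the smallest p in each direction are named, except 1 that is not reported here. Marker lists for CD8 T, CD4 T, B, myeloid, NK and pancreas cells were checked; Zbtb7b (CD4 T, log2 fold change 0.48, edgeR adjusted p = 0.0121) and Itgam (myeloid, 0.91, edgeR adjusted p = 0.0151) were the only markers called.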

Additional observations from a re-analysis of the deposited data

How the results depend on the processing

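The count of 12 higher members was 8 to 13 with DESeq2 or its size factors, limma-voom, upper-quartile factors, other count filters, gene ends within 2.5 kb or a replicate block, 15 at a false discovery rate of 0.1, and 9 to 12 with a library left out; it was 7 among regions in all 6 peak lists (median log2 fold change 0.10), 6 with total counts (median 0.07, with 1 lower) and 0 with trended offsets (median -0.02, with 1 lower). Total counts moved the median of all tested regions from -0.05 to -0.16 and their calls from 2894 higher and 3078 lower to 1282 and 4331; upper-quartile factors gave 1993 and 3601, and a member median of 0.13; trended offsets gave 507 and 967. Leaving out a library gave 0 to 2 lower members and medians of 0.14 to 0.23; the 2 lower and the 0.14 came without control library 2, which also ended the calls of Fdps, Lss and Elovl1. Without palmitate library 3 the calls of Fdps, Lss and Acly ended. The median difference from gene ends of like strength was -0.09 to -0.02 in every setting for which it was computed. It was not computed for trended offsets with a replicate block or with a library left out. With the replicate number as a block, 12 members were higher and 0 lower; same-numbered libraries did not deviate together (correlations 0.000449, -0.104 and -0.027), and 0 libraries correlated best with their own number. In alternatives chosen after seeing the data, trended offsets with the replicate block gave 0 higher and 1 lower, and with a library left out 0 higher and 0 to 2 lower. Signs turned with trended offsets at Srebf2 (-0.08), Acat2 (-0.15), Lss (-0.04), Msmo1 (-0.00), Dhcr7 (-0.07), Acly (-0.06), Fasn (-0.11) and Elovl5 (-0.11); with total counts at Acat2 (-0.06), Tm7sf2 (-0.06) and Elovl5 (-0.05); and among regions in all 6 lists at Acat2 (-0.03), Tm7sf2 (-0.03) and Elovl5 (-0.02). Cyp51 was at 0.02 with DESeq2 and with its size factors. With a library left out, signs turned at Cyp51 (-0.07 to 0.08), Tm7sf2 (-0.05 to 0.17), Acat2 (-0.05 to 0.13) and Elovl7 (-0.00 to 0.19). The cause of these shifts was not tested. Depth limits the weak regions most: SE was 0.064 to 0.28 on the log2 scale, highest at Scd1.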
